A study of Triticum aestivum with 14 samples.

Results

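The genes described here are the 137 wheat genes, of 100591 in the deposited table, whose name, description or gene ontology text holds the word meiotic or meiosis. Genes that the table also places in the DNA replication pathway were left out (4 genes). For 131 of the 137 the word stands in the ontology text alone, and the other 6 carry it in their description: Meiosis 5, a pair of genes for the Disrupted meiotic cDNA 1 protein and 3 homologs of Meiotic nuclear division protein 1. Bulk RNA-seq was done on 14 libraries of bread wheat (Triticum aestivum), all from untreated central spikelets 21 days after the terminal spikelet stage, and all carrying the label N50, which the labels leave unexplained. The libraries form 5 groups: F5 (n = 3), F1 (n = 3), Anther (n = 3), Ovary (n = 3) and Lemma (n = 2). The design sets fertile against abortive florets, and separately the anther, ovary and lemma of a fertile floret. F5 and F1 were taken as the floret groups. Which of the pair holds the fertile florets is not stated in the labels.

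Meiosis is the division that reduces the chromosome number before spores, and later pollen and egg cells, are made. In its first division, homologous chromosomes break their DNA at many sites, repair the breaks from each other with recombinases, pair, and exchange arms at crossovers that hold them together as chiasmata. Cohesion between sister chromatids is kept at the centromeres until the second division, when the sisters part. In flowers the meiotic cells lie inside the anther, where they give rise to pollen, and inside the ovule, where they give rise to the embryo sac. Many proteins of recombination and chromosome segregation also serve ordinary cell division or DNA repair, so a meiotic annotation does not make a gene specific to meiosis.

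Total counts per library were 100415586 to 105526441 in F5, 75016595 to 79847721 in F1, 76441070 to 96159764 in Anther, 80349973 to 103924952 in Ovary and 98099271 to 100117298 in Lemma. Whether replicates came from separate plants is not stated, and p-values then measure only the spread between these samples, which may be technical. The lowest correlations were those of F1 replicate 1 with the other F1 libraries, at 0.914 and 0.927 (log2 CPM, counts scaled to library totals, over 49980 genes). Other pairs within a group correlated at 0.954 to 0.989. Ovary replicate 3 also stood off within its group, at 0.954 and 0.966, where Ovary replicates 1 and 2 correlated at 0.9875. Levels are given as the authors' FPKM (fragments scaled to the length of the gene model and to the library total). Changes are log2 fold changes from edgeR's quasi-likelihood test on the counts, with their standard errors (SE) and Benjamini-Hochberg adjusted p-values over all genes tested. A gene was called at an adjusted p under 0.05 and at least a 2-fold change. The fitted changes allow for composition and so differ from FPKM ratios. Among members with at least 1 FPKM in both groups, the fitted log2 change lay above the FPKM ratio by a median of 0.27 for F5 against F1 and 0.38 for Anther against Ovary. It lay below the ratio for Anther against Lemma (median difference -0.24), Ovary against Lemma (-0.62) and F5 against Lemma (-0.23).

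The meiosis genes were most abundant in Ovary and F1 and least abundant in F5 and Lemma. The median FPKM over the 137 genes was 0.259 to 0.281 in the F5 libraries, 1.24 to 1.55 in F1, 0.802 to 0.922 in Anther, 1.88 to 2.30 in Ovary and 0.190 to 0.224 in Lemma. No group's range touched its neighbour's, so that the order was Ovary, F1, Anther, F5 and Lemma. After composition scaling (trimmed mean of M-values, TMM) the order of the per-library medians in CPM was the same (0.747 to 0.899 in F5 and 0.513 to 0.657 in Lemma). By mean FPKM, 3 genes were highest in F5, 17 in F1, 18 in Anther, 98 in Ovary and 1 in Lemma. On the TMM scale the highest group was F5 for 7 genes, F1 for 15, Anther for 25, Ovary for 86 and Lemma for 4. At least 1 FPKM was reached by 45 genes in F5, 83 in F1, 61 in Anther, 93 in Ovary and 38 in Lemma. There were 37 genes below 1 FPKM in every group and 26 that reached 5 FPKM in some group. All libraries of a group had 0 counts for 7 genes in F5, 7 in Anther, 3 in Ovary, 23 in Lemma and none (0 genes) in F1. Because these are whole florets and organs, fewer cells of a type and less RNA per cell cannot be told apart.

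**Figure D1:**
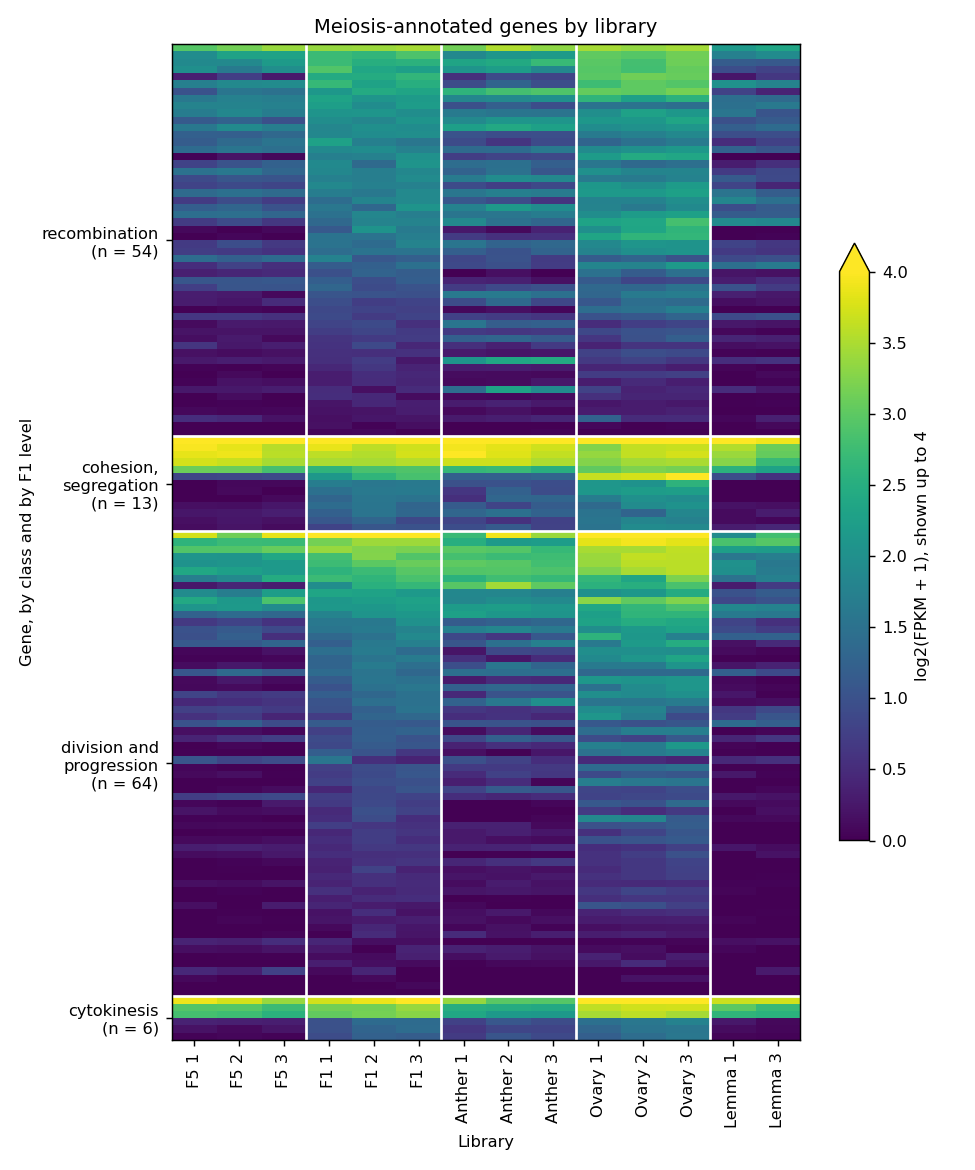
Each row is 1 of the 137 genes and each column 1 library; colour gives log2(FPKM + 1), capped at 4, and rows are sorted by class and then by their F1 level. The columns of F5 and Lemma are dark over most rows, while F1 and Ovary are bright, and a few rows at the top of the cohesion, division and cytokinesis classes are bright in every library.

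In F5 against F1, 66 of the 131 members that passed the count filter fell and none (0 genes) rose. Over all genes tested, 13.7% were called lower and 10.4% higher. The median log2 fold change of the members was -1.36, beside -0.05 over all genes, and 48 of the 66 fell at least 4-fold. The median of the 66 genes' mean FPKM was 1.13 in F1 and 0.0897 in F5. A gene could pass the count filter through F1 alone, and such a gene had to differ. The same holds for the floret counts by class below. In 105 of the 131, every F5 library lay below every F1 library in FPKM and the fitted change was negative, which held for 37.3% of all genes tested. Of the members with a positive change, 4 had an unadjusted p under 0.05, 3 had an adjusted p under 0.05 with less than a 2-fold change, and DESeq2 called 0 higher. One was called higher without F1 replicate 1 (1 gene), and then 64 were called lower. The 6 members left out of the test had almost no reads in florets.

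The organs differed from Lemma in the other direction. In Anther against Lemma, 76 of 132 members tested were higher and 6 lower, where 25.2% of all genes were called higher and 26.7% lower. Their median log2 fold change was 1.35, or 1.23 with genes at 0 counts in 1 group set to the bound given by 3 counts for that group. In Ovary against Lemma, 83 of 132 were higher and 1 lower, where 20.4% of all genes were called higher and 22.4% lower, and the median was 2.43, or 2.40 with such genes at their bound. The 1 member called lower in Ovary, TraesCS5D02G105000 (meiotic cell cycle), had a log2 fold change of -1.06 (SE 0.18, adjusted p = 0.00152), and without Lemma replicate 1 it was no longer called (-0.90). In Anther against Ovary, 46 of 132 were lower and 4 higher, where 21.7% of all genes were called lower and 21.9% higher, and the median was -0.80. These 3 organ comparisons share their libraries, so their counts are not independent of each other. Many members passed the filter through a single high group, and such genes had to differ.

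**Figure D2:**
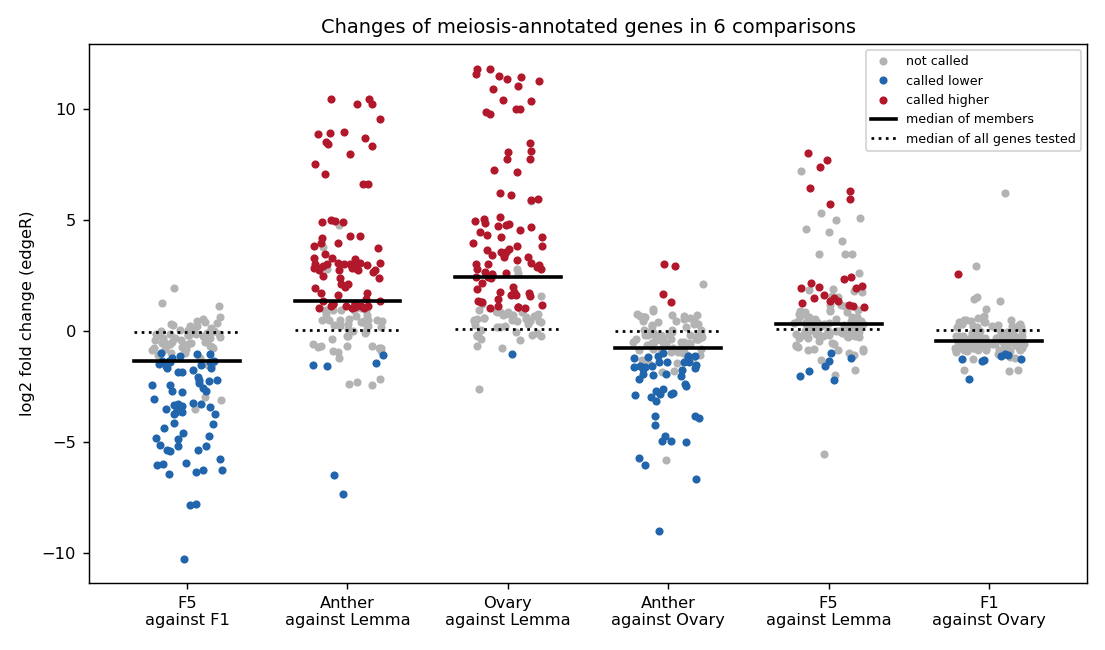
Points are the members tested in each comparison, placed by log2 fold change and coloured by call; the solid bar is the members' median and the dotted bar the median of all genes tested. Members lie mostly below 0 in F5 against F1 and mostly above 0 in both organs against Lemma, and changes beyond about 6 include genes with 0 counts in 1 group, whose fitted size depends on the model's prior count.

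**Figure D3:**
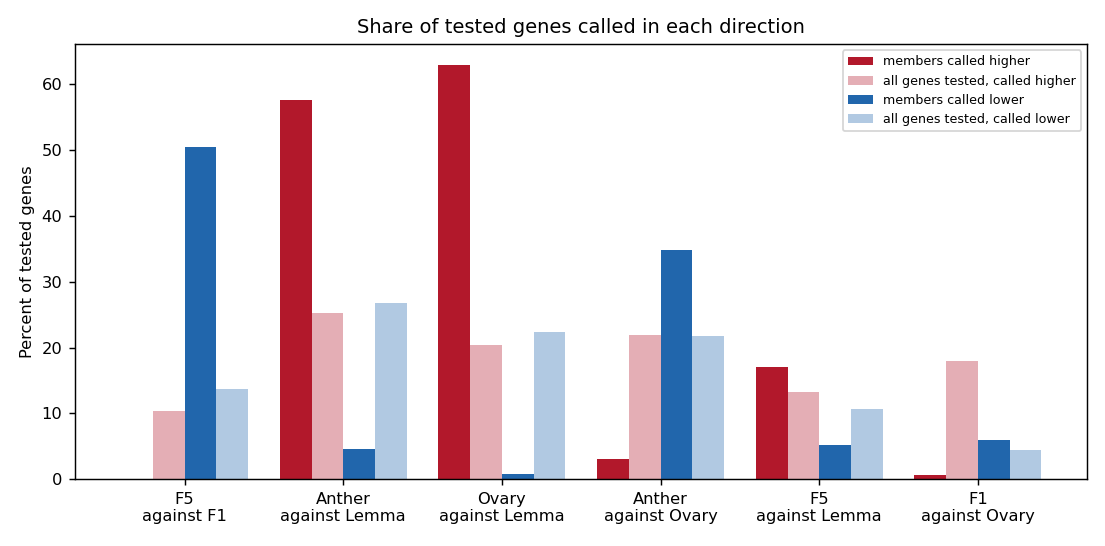
Dark bars give the percent of tested members called higher (red) or lower (blue) in each comparison, and pale bars the same percent over all genes tested. The members' share called lower in F5 against F1 (50.4%) and higher in Anther (57.6%) and Ovary (62.9%) against Lemma stands above that of all genes. In F1 against Ovary the members' share called higher (0.741%) stands below that of all genes (17.9%).

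The most abundant member in F1 and in Ovary was TraesCS3A02G314100, described as Meiosis 5 (chromosome 3A, 554215238 to 554216792, on the deposited table's positions, whose build is not given). Only the description ties it to meiosis: it has no ontology term, and the table's pathway column puts it in RNA polymerase and nucleotide metabolism. Its FPKM was 12.4, 7.75 and 13.5 in F5, against 51.0, 87.2 and 80.9 in F1. It was 5.52, 14.0 and 9.52 in Anther, 178.0, 180.5 and 181.1 in Ovary, and 2.80 and 5.89 in Lemma. The floret groups did not overlap, nor did Ovary with any other group, while Anther overlapped F5 and Lemma. Its log2 fold change was -2.43 in F5 against F1 (SE 0.293, adjusted p = 0.00198, edgeR), -3.84 in Anther against Ovary (SE 0.402, adjusted p = 0.000108) and 4.75 in Ovary against Lemma (SE 0.503, adjusted p = 0.000128). In F1 against Ovary it was -1.26 (adjusted p = 0.0185), a call lost without F1 replicate 1 (-1.07, adjusted p = 0.0674). This gene alone made up 3.68 to 6.63% of the members' summed FPKM in F5, 14.2 to 20.9% in F1 and 27.2 to 30.0% in Ovary. Without it the sums were 190.5 to 202.9 in F5, 307.7 to 347.9 in F1 and 243.7 to 263.5 in Anther. They were 416.0 to 484.3 in Ovary and 139.9 to 156.1 in Lemma. In FPKM, without composition scaling, the groups thus kept their order.

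**Figure D4:**
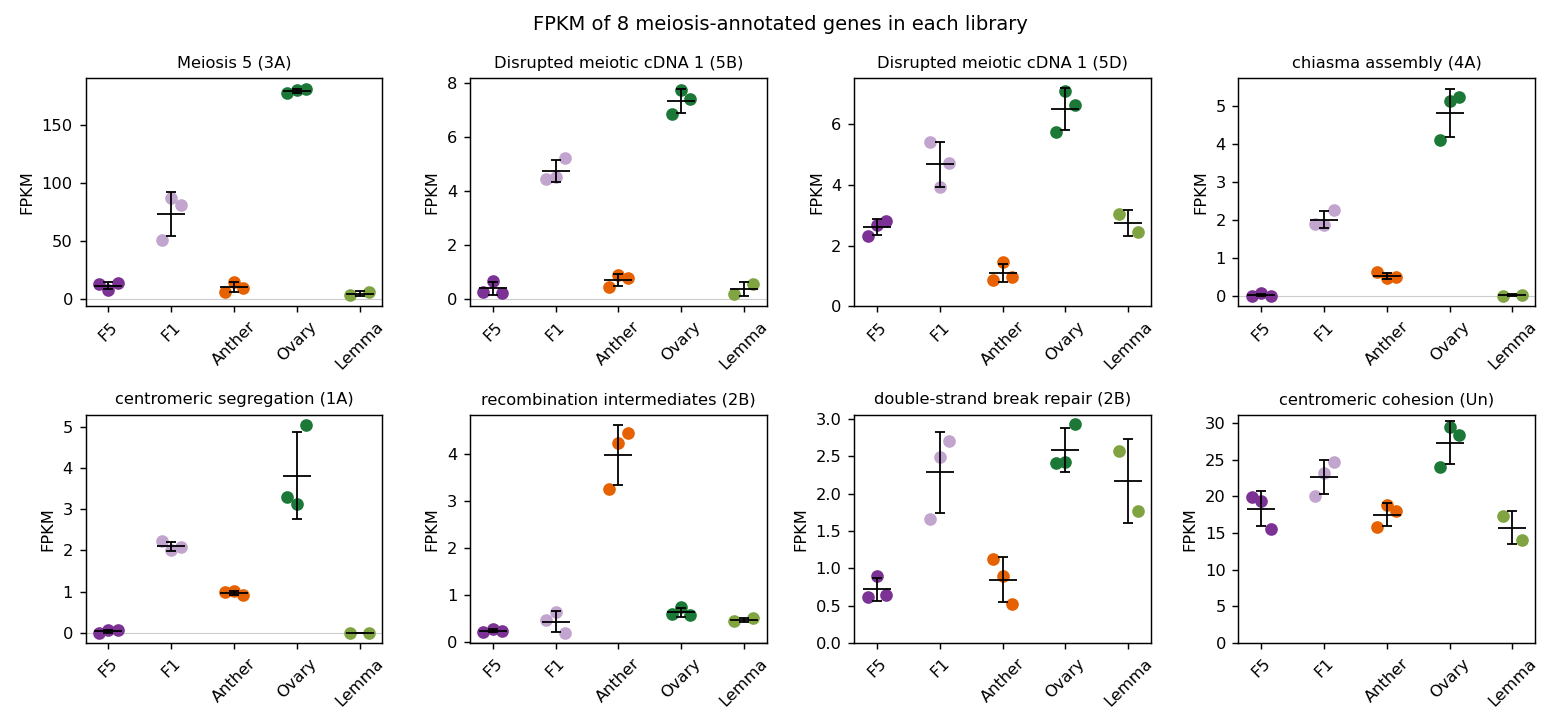
Each panel shows 1 gene, with a point per library, its FPKM on the vertical axis (from 0), and the mean ± SD of the group as a black bar (n = 3, Lemma n = 2). Meiosis 5, the 5B copy of Disrupted meiotic cDNA 1, the chiasma gene and the centromeric gene are high in F1 and Ovary, the recombination-intermediate gene is high in Anther, the double-strand break repair gene is low in F5 and Anther, and the cohesion gene on the unplaced sequence is high in every group.

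Disrupted meiotic cDNA 1 (DMC1) is the recombinase that, in other eukaryotes, works in meiosis to let a broken end invade the homologous chromosome. The gene on 5B, TraesCS5B02G131900 (246136791 to 246141302), had 0.275, 0.679 and 0.226 FPKM in F5, against 4.45, 4.51 and 5.19 FPKM in F1. It had 0.452, 0.875 and 0.766 FPKM in Anther, 6.83, 7.72 and 7.40 in Ovary, and 0.186 and 0.566 in Lemma. F1 and Ovary thus stood apart from the other 3 groups, which overlapped. The change was -3.31 on the log2 scale in F5 against F1 (SE 0.427, adjusted p = 0.00246), -3.00 in Anther against Ovary (SE 0.407, adjusted p = 0.00042) and 3.64 in Ovary against Lemma (SE 0.5, adjusted p = 0.000507).

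The DMC1 gene on 5D, TraesCS5D02G141200 (224946636 to 224950905), behaved differently by level. Its FPKM was 2.31, 2.69 and 2.80 in F5, against 5.39, 3.92 and 4.69 in F1, with no overlap. It was 0.881, 1.45 and 0.954 in Anther, 5.74, 7.09 and 6.63 in Ovary, and 3.05 and 2.44 in Lemma. Its change in F5 against F1 was -0.58 (SE 0.191, adjusted p = 0.0523) and was not called, which does not show that the groups were alike. Anther was lower than Ovary (-2.18, SE 0.224, adjusted p = 9.2e-05) and lower than Lemma (-1.56, SE 0.239, adjusted p = 0.000704). A gene on 5A with the same ontology terms as the 5B copy, TraesCS5A02G133000, stayed under 0.7 FPKM in every library, with 0 to 0.0723 FPKM in F5 and 0.251 to 0.432 FPKM in F1. Of the FPKM of the 3 genes together, the 5D copy held 78.2 to 92.5% in F5, 44.2 to 53.4% in F1, 53.2 to 61.4% in Anther, 43.5 to 45.9% in Ovary and 79.2 to 94.3% in Lemma. How alike these genes are in sequence was not examined here; if their reads are shared, counting could split them, so these values are uncertain. The difference in response between the copies was not tested.

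Meiotic nuclear division protein 1 (MND1) works beside DMC1, in yeast as in plants, to help strand exchange. The table's pathway column places its homologs in the citrate cycle, which goes against their description and ontology. The 5A gene TraesCS5A02G174300 had 2.04, 2.38 and 2.28 FPKM in F5, against 3.99, 3.22 and 3.52 FPKM in F1, with a log2 fold change of -0.42 (adjusted p = 0.122). The 5B gene TraesCS5B02G171700 had 1.19, 1.39 and 0.972 FPKM in F5, against 2.89, 2.56 and 3.22 FPKM in F1, and fell by 1.02 (SE 0.234, adjusted p = 0.0162). That call sat at the 2-fold limit: it was lost without F1 replicate 1 (-0.97, adjusted p = 0.0362), F1 replicate 3 (-0.97, 0.0557), F5 replicate 1 (-1.02, 0.0528) or F5 replicate 3 (-0.90, 0.0442). The 5D gene TraesCS5D02G178900 had 1.30, 1.47 and 1.00 FPKM in F5 and 2.01, 1.52 and 3.18 FPKM in F1 (-0.56, adjusted p = 0.201). Unlike DMC1, the MND1 homologs were not called in Anther against Ovary, with changes of -0.37, 0.15 and 0.65 in the order 5A, 5B, 5D. The 5B and 5D homologs were higher in Anther than in Lemma (1.25, adjusted p = 0.00191, and 1.20, adjusted p = 0.00414). The 5B homolog was also called higher in Ovary than in Lemma, a call lost without Lemma replicate 1 (0.94).

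Among the other recombination genes, the steepest changes were in 3 genes on 4A, 4B and 4D whose ontology reads chiasma assembly and reciprocal meiotic recombination. TraesCS4A02G269200 had 0, 0.0554 and 0 FPKM in F5, against 1.88, 1.86 and 2.27 FPKM in F1. It had 0.618, 0.464 and 0.481 FPKM in Anther, 4.11, 5.14 and 5.25 in Ovary, and 0 and 0.0270 in Lemma. F5 and Lemma were at the edge of detection, and every F1 and Ovary library was well above them. The log2 fold change in F5 against F1 was -6.28 (SE 1.09, adjusted p = 0.00647). For TraesCS4B02G045000 it was -5.37 (adjusted p = 0.00685) and for TraesCS4D02G044700 -4.73 (adjusted p = 0.00279). The last 2 of these genes had 0 counts in both Lemma libraries, and Ovary was at least 203-fold and 221-fold higher than Lemma, on TMM-scaled totals, with Lemma's total set to 3 counts.

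Ontology classes within recombination were counted by how many members were called lower in F5 against F1, where 13.7% of all genes tested were. Of genes with the term reciprocal meiotic recombination, 15 of 29 tested fell. Of those for double-strand break formation, the first step, 1 of 8 did: TraesCS2D02G337000, at 0.0149, 0.0498 and 0.0322 FPKM in F5, against 0.830, 0.741 and 0.696 FPKM in F1 (-4.15, SE 0.504, adjusted p = 0.00194). By sign, 7 of these 8 were lower in F5, and in 6 of the 8 every F5 library lay below every F1 library. Another member of that class, TraesCS7D02G403500, had 2.47, 2.44 and 2.38 FPKM in F5, against 3.74, 2.86 and 3.65 FPKM in F1 (-0.23, adjusted p = 0.351). All 4 tested genes annotated to the Mre11 complex, which trims broken ends in mitotic and meiotic cells, fell by 1.03 to 1.40. They include the Double-strand break repair gene on 2B, TraesCS2B02G559100, with 0.619, 0.902 and 0.640 FPKM in F5 and 1.67, 2.49 and 2.70 FPKM in F1 (-1.40, SE 0.245, adjusted p = 0.00661). Of the mismatch repair genes, 2 of 8 fell, and the most abundant recombination gene, TraesCS2B02G198300, is one that was not called, with 6.68, 7.88 and 9.39 FPKM in F5 and 9.33, 9.58 and 10.0 FPKM in F1 (-0.01, adjusted p = 0.98). The difference between these classes was not tested.

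Of the 5 genes annotated to the Mre11 complex, 3 were called lower in F5 than in Lemma, where 10.7% of all genes tested were. TraesCS2B02G559100, with the F5 values above, had 2.57 and 1.77 FPKM in Lemma, a change of -1.82 for F5 (adjusted p = 0.000743). The 2A gene with the same description, TraesCS2A02G528700, named after its values were seen, had 0.615, 0.877 and 0.569 FPKM in F5 and 2.83 and 2.63 FPKM in Lemma (-2.22, adjusted p = 0.000139). The 2D gene TraesCS2D02G531600, of the same complex, was at -2.04 (adjusted p = 0.000169). The gene on 1A, TraesCS1A02G162200, named after its values were seen, was not called, with 0.857, 1.10 and 1.05 FPKM in F5 and 1.20 and 0.838 FPKM in Lemma (-0.25, adjusted p = 0.362). In Anther against Lemma the 4 genes tested were split, where 26.7% of all genes were called lower and 25.2% higher. The 2B and 2D genes were lower in Anther (-1.60, adjusted p = 0.00229, and -1.48, adjusted p = 0.000802), and the 2A gene was not called. The 1A gene was higher, with 2.15, 2.83 and 2.64 FPKM in Anther (1.08, adjusted p = 0.00313), a call lost without Lemma replicate 3 (0.85, adjusted p = 0.0194). Its fall in F5 against F1 (-1.03) slipped under 2-fold without F1 replicate 3 (-0.97) or F5 replicate 1 (-0.93). The fall of the 2D gene in F5 against F1 (-1.14, adjusted p = 0.0175) was lost without F1 replicate 3 (adjusted p = 0.0606), F5 replicate 1 (0.062) or F5 replicate 3 (0.0549).

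Chromosome segregation and cohesion gave both steep and flat profiles. All 7 members annotated to the centromeric region of chromosomes fell in F5 against F1, by 2.60 to 5.97. Over all genes tested, 13.7% were called lower. TraesCS1A02G143700 had 0, 0.0585 and 0.0577 FPKM in F5, against 2.22, 2.00 and 2.08 FPKM in F1. It had 0.979, 1.01 and 0.924 FPKM in Anther, 3.29, 3.11 and 5.03 in Ovary, and 0 and 0 in Lemma. No F5 library reached the level of any F1, Anther or Ovary library. The log2 fold change in F5 against F1 was -5.37 (SE 0.872, adjusted p = 0.00522). Genes of the same annotation on 1B (TraesCS1B02G161100, -5.77, adjusted p = 0.0123) and 1D (TraesCS1D02G142500, -5.97, adjusted p = 0.01) matched that direction. All 3 had 0 counts in Lemma, and Ovary was at least 255-, 178- and 253-fold higher on the same scale, in the order 1A, 1B, 1D.

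Centromeric histone 3 replaces the usual histone in the nucleosomes on which kinetochores are built, in mitosis as in meiosis. Its gene on 1D, TraesCS1D02G306100, is another of the 7 and was picked out after its values were seen. It had 0.199, 0.343 and 0.243 FPKM in F5, against 2.89, 4.84 and 5.35 FPKM in F1. It had 6.79, 9.87 and 7.04 FPKM in Anther, 4.91, 4.70 and 6.20 in Ovary, and 0.230 and 0.612 in Lemma. F5 overlapped Lemma and lay far below the other 3 groups, and here Anther lay above Ovary without overlap. The changes were -3.75 in F5 against F1 (SE 0.355, adjusted p = 0.000895) and 3.97 in Anther against Lemma (SE 0.432, adjusted p = 0.000109), while Anther against Ovary, at 0.96 (adjusted p = 0.0304), stayed under 2-fold.

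Some other cohesion and spindle genes were high in every library and were not called in F5 against F1. TraesCSU02G181400, on an unplaced sequence and annotated to centromeric cohesion of sister chromatids in meiosis, was the member with the highest mean in F5, Anther and Lemma. It had 19.98, 19.4 and 15.6 FPKM in F5, against 20.1, 23.2 and 24.6 FPKM in F1, with a log2 fold change of -0.04 (SE 0.142, adjusted p = 0.845). The other 2 of the 3 genes with that cohesion term, named after their values were seen, fell in F5 against F1. Over all genes tested, 13.7% were called lower. TraesCS1A02G420000 had 0.789, 0.813 and 0.887 FPKM in F5, against 3.33, 5.12 and 6.13 FPKM in F1 (-2.27, adjusted p = 0.00113). TraesCS1D02G427800 had 0.0993, 0.153 and 0.0889 FPKM in F5, against 0.752, 1.10 and 1.01 FPKM in F1 (-2.77, adjusted p = 0.00239). The spindle assembly gene TraesCS5A02G162700 had 14.6, 13.4 and 10.8 FPKM in F5 and 13.6, 11.2 and 12.1 FPKM in F1 (0.34, adjusted p = 0.142). Its ontology also holds nonsense-mediated decay of mRNA, a process of all cells. The 3 spindle assembly genes were called in no comparison. The 5B and 5D genes had an adjusted p under 0.05 in F5 against F1 with changes of 0.44 and 0.40, under 2-fold. The Sister chromatid cohesion protein gene on 2D, TraesCS2D02G263300, also chosen after its values were seen, is 1 of the 3 members with a higher level in F5 at an adjusted p under 0.05: 7.61, 7.52 and 6.05 FPKM in F5 and 5.07, 6.21 and 6.48 FPKM in F1 (0.52, SE 0.139, adjusted p = 0.0272).

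Genes annotated to the nuclear divisions themselves were counted by term, beside the 13.7% of all genes called lower in F5 against F1; the difference between terms was not tested. Of those with the term male meiosis II, the second division in the anther lineage, 13 of 16 tested fell in F5 against F1, with a median log2 fold change of -3.64. In TraesCS2D02G382000 the FPKM was 0.0667, 0.0896 and 0.0263 in F5, against 1.00, 1.82 and 1.99 in F1 (-4.39, SE 0.513, adjusted p = 0.00177). This gene's level in Anther (1.35, 1.52 and 1.38 FPKM) lay within the range of the F1 libraries, with 1.79, 2.82 and 3.31 FPKM in Ovary and 0.0809 and 0.0381 FPKM in Lemma. Of the 16 genes with the term, 9 were lower in Anther than in Ovary, beside 21.7% of all genes. TraesCS7D02G457700 shares the term, with 0, 0.0378 and 0.0937 FPKM in F5 and 0.351, 0.813 and 1.08 FPKM in F1 (-3.74, adjusted p = 0.0378), a call lost without F1 replicate 2 (0.0935), F1 replicate 3 (0.101) or F5 replicate 2 (0.115), given as adjusted p. The largest fitted fall was in another gene of this term, TraesCS5D02G421200, with 0 counts in F5 and 0.701, 0.954 and 0.968 FPKM in F1.

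Of genes for male meiotic nuclear division, 7 of 20 tested fell, and of those for female meiotic nuclear division, 7 of 18, and the terms share most of their genes. In F5 against F1, 13.7% of all genes tested were called lower. Within them TraesCS6B02G354700 had 0, 0 and 0.0361 FPKM in Anther, against 2.63, 2.55 and 1.20 FPKM in Ovary (-6.66, SE 0.935, adjusted p = 0.000501). TraesCS5A02G233400 had 0, 0 and 0.0466 FPKM in Anther, against 1.14, 1.01 and 1.60 FPKM in Ovary (-5.74, SE 0.984, adjusted p = 0.00146). Both rest on few reads in Anther. TraesCS3D02G419100, with both terms, had 1.40, 2.03 and 2.97 FPKM in Anther and 1.89, 1.96 and 2.16 FPKM in Ovary (0.47, adjusted p = 0.202), and exceeded Lemma, at 0.0872 and 0.106 FPKM (4.17, adjusted p = 7.02e-05). The establishment of cohesion gene TraesCS2D02G353200 had 0, 0.114 and 0 FPKM in Anther and 1.81, 1.23 and 1.78 FPKM in Ovary (-4.97, SE 1.14, adjusted p = 0.00651).

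The 4 genes for regulation of meiotic nuclear division and the 6 for cytokinesis in male meiosis include abundant genes that changed little between florets. TraesCS6A02G078200, of the first set, had 5.04, 5.62 and 5.53 FPKM in F5, against 8.01, 9.65 and 9.66 FPKM in F1 (-0.49, SE 0.13, adjusted p = 0.027), under 2-fold. It had 4.67, 3.54 and 3.65 FPKM in Anther, against 13.3, 14.3 and 13.4 FPKM in Ovary (-1.41, SE 0.135, adjusted p = 6.33e-05). All 4 genes of that set were lower in Anther than in Ovary, where 21.7% of all genes tested were called lower. TraesCS4A02G414600, of the cytokinesis set, had 9.31, 6.83 and 6.67 FPKM in Anther, against 21.2, 21.7 and 22.9 FPKM in Ovary (-1.15, SE 0.141, adjusted p = 0.000241). TraesCS4D02G312300, its counterpart by annotation on 4D, gave -1.02 (SE 0.117, adjusted p = 0.000161). In F5 against F1 these 2 genes changed by 0.03 and -0.14 and were not called, while the 3 cytokinesis genes on chromosomes 2A, 2B and 2D fell by 3.09, 2.08 and 4.82. Over all genes tested in F5 against F1, 13.7% were called lower.

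Only 4 members were called higher in Anther than in Ovary, where 21.9% of all genes tested were. Those with the largest change were a 2B and a 2D gene annotated to positive regulation of recombination, to male meiotic nuclear division and to the resolution of recombination intermediates. TraesCS2B02G096500 (56775524 to 56778785) had 3.26, 4.21 and 4.44 FPKM in Anther, against 0.591, 0.737 and 0.559 FPKM in Ovary. It had 0.204, 0.265 and 0.226 FPKM in F5, 0.460, 0.635 and 0.191 FPKM in F1, and 0.432 and 0.496 FPKM in Lemma. Every Anther library lay far above all others, with a log2 fold change of 3.02 over Ovary (SE 0.237, adjusted p = 2.29e-05) and of 2.84 over Lemma (SE 0.279, adjusted p = 6.03e-05). In F5 against F1 it was -0.64 (adjusted p = 0.405). TraesCS2D02G080300 had 1.69, 3.93 and 2.79 FPKM in Anther, against 0.728, 0.306 and 0.379 FPKM in Ovary (2.92, SE 0.523, adjusted p = 0.00182). The 2A gene for resolving recombination intermediates, TraesCS2A02G082400, had 1.95, 1.27 and 1.33 FPKM in Anther, against 0.421, 0.668 and 0.784 FPKM in Ovary (1.67, SE 0.317, adjusted p = 0.00248). The remaining 1, TraesCS2B02G041900 (chromosome organization, named after its values were seen), averaged below 1 FPKM in both organs, and its call (1.29, adjusted p = 0.0172) was lost without Anther replicate 1 (1.03, adjusted p = 0.0584).

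TraesCS2D02G286100, annotated to the FANCM-MHF complex, which limits crossovers in Arabidopsis, was high in both organs: 5.04, 5.97 and 6.47 FPKM in Anther and 7.28, 7.01 and 7.96 FPKM in Ovary (0.03, adjusted p = 0.936). It had 0.737 and 0.320 FPKM in Lemma, with a change of 3.22 for Anther (SE 0.359, adjusted p = 0.000125). In F5 it had 1.00, 1.93 and 1.81 FPKM, against 3.34, 4.47 and 4.05 FPKM in F1 (-1.05, adjusted p = 0.0371). That floret call was lost without F1 replicate 2 (0.115), F1 replicate 3 (0.0847) or any of F5 replicates 1, 2 and 3 (0.0731, 0.063 and 0.0603, as adjusted p).

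The floret and organ libraries share no sample, so the same genes can be set side by side. Of the 66 members that fell in F5 against F1, 60 were higher in Ovary than in Lemma and 0 lower, and 52 were higher in Anther than in Lemma and 3 lower. Of the 9626 genes of the whole table that fell in F5, 61.5% were higher and 7.24% lower in Ovary than in Lemma, and 48.1% were higher and 14.5% lower in Anther than in Lemma. Of the 65 members tested and not called in the florets, 22 were higher in Ovary and 23 higher in Anther than in Lemma, where the shares over all genes not called in the florets were 15.2% and 19.4%. Of 130 members tested in both fits, 109 were lower in F5 than in F1 and higher in Ovary than in Lemma by sign, where 37% of the 68542 genes tested in both fits had these signs. Among the members, 8 were higher in both and 6 lower in both. The commonest pattern was a fall in F5, a higher level in both organs than in Lemma and no call between the organs, seen in 30 of these 130 genes and in 2.12% of all genes tested in both fits. A further 20 had the same pattern with Anther lower than Ovary (1.58% of all genes), and 21 had no call in any of these 4 comparisons (27.3% of all genes).

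**Figure D5:**
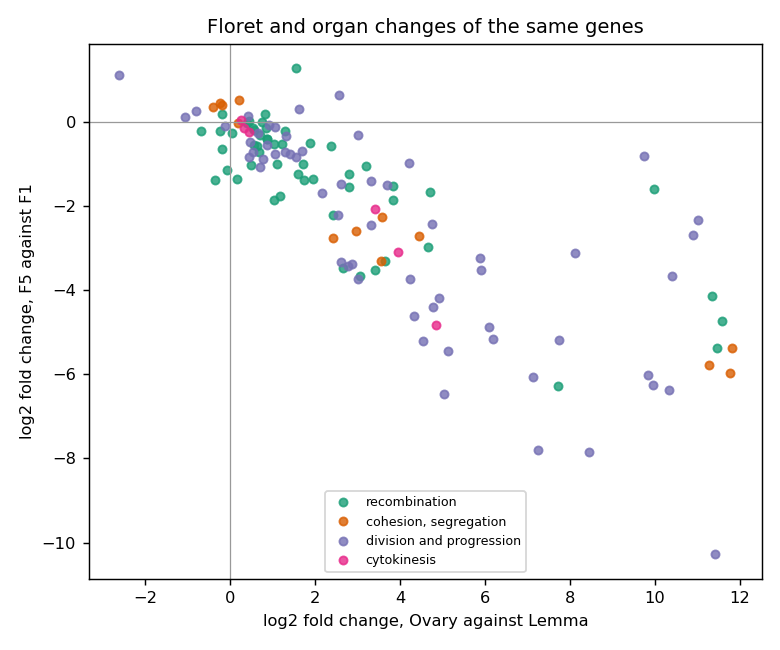
Each point is a member tested in both fits, with the log2 fold change of Ovary against Lemma on the horizontal axis and of F5 against F1 on the vertical axis, coloured by class. Most points (109 of 130) lie in the lower right quadrant; those beyond 8 on the horizontal axis include genes with 0 counts in Lemma, whose position depends on the prior count.

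F5 was also set against Lemma, and F1 against Ovary, in 1 fit of all 14 libraries, where fewer members were called. In F5 against Lemma, 23 of 135 members tested were higher and 7 lower, where 13.3% of all genes were called higher and 10.7% lower, and the median change was 0.31, or 0.25 with genes at 0 counts in 1 group set to their bound. Without F5 replicate 3 or without Lemma replicate 3 the lower count was 4. In F1 against Ovary, 1 member was higher and 8 were lower, where 17.9% of all genes were called higher and 4.46% lower, and the median was -0.46. The lower count was 4 without F1 replicate 1 and 5 without Ovary replicate 3. The 1 member higher in F1, TraesCS1B02G191900, stayed under 0.5 FPKM in every library, and the call was lost without F1 replicate 1 or any 1 Ovary library, where the count was 0; it was 2 without F1 replicate 2 and 3 without F1 replicate 3. Of the 66 members that fell in F5 against F1, 49 were not called between F5 and Lemma and 60 not between F1 and Ovary, comparisons that share the F5 or the F1 libraries with the first. A missed threshold does not show that levels were equal.

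By subgenome the members number 44 on A, 47 on B and 45 on D, with 1 unplaced. In 17 sets, holding 51 genes, an A, a B and a D gene of the same chromosome group carry the same meiotic terms. In the spindle assembly set the 3 copies peaked at 13.2, 13.1 and 11.4 FPKM. The most uneven set was that of group 7 for double-strand break formation and spindle organization, where the copies peaked at 0.0937, 1.65 and 1.62 FPKM in the order A, B, D. The next was the set of group 3 for male and female meiotic nuclear division, with 3.37, 8.17 and 2.13 FPKM. That the genes of a set are true homoeologs is not recorded in the table.

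A further 35 genes, whose descriptions name related proteins but hold neither search word, were read beside the members. In F5 against F1, 15 of the 35 fell and 0 rose, with a median change of -1.26, where 13.7% of all genes were called lower and 10.4% higher. In Anther against Lemma 15 were higher and 1 lower, beside 25.2% and 26.7% of all genes. In Ovary against Lemma 15 were higher and 2 lower, beside 20.4% and 22.4% of all genes. In Anther against Ovary 5 were higher and 14 lower, beside 21.9% and 21.7% of all genes. In F5 against Lemma 1 was higher and 3 were lower (13.3% and 10.7% of all genes), and in F1 against Ovary 3 were higher and 1 lower (17.9% and 4.46% of all genes). Among the 5 higher in Anther were Structural maintenance of chromosomes genes on 2A, 2B and 2D, proteins of the rings that hold or fold chromosomes. Genes with the same description on 1A, 1B, 1D, 3A, 3B and 3D went the other way. They were called lower in Anther than in Ovary, with log2 fold changes of -3.27 to -1.25. Those on 7A, 7B and 7D were not called.

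Gene lists tied to ordinary cell division were set beside the members. A list of 510 genes held a core histone's name in their name or description, or in the ontology text where a description was missing. Ontology text can also name a histone for genes that act on histones, so not all need be histone genes. The summed CPM of this list were 1569 to 1650 in F5, 5868 to 8010 in F1 and 2234 to 2295 in Anther. They were 15957 to 20370 in Ovary and 1008 to 1212 in Lemma. Those of 224 genes in the DNA replication pathway were 868 to 951 in F5, 2303 to 2650 in F1, 1140 to 1217 in Anther, 2764 to 3473 in Ovary and 909 to 1023 in Lemma. The members summed to 592 to 636 in F5, 945 to 1120 in F1, 736 to 792 in Anther, 1399 to 1597 in Ovary and 430 to 487 in Lemma. On library totals these 3 sums put the groups in the same order, except that F5 and Lemma overlapped for the replication genes. After TMM scaling the members' sums were 845 to 923.7 CPM in F1 and 797.2 to 863.9 in Anther, which overlapped. The sums of the histone and replication lists were not scaled this way. The part of cell division in the members' changes was not tested.

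Tissue markers were as follows. The 373 genes of the anther list summed to 2470 to 2565 CPM in F5, 2774 to 3359 in F1, 5598 to 5827 in Anther, 3066 to 3220 in Ovary and 2227 to 2320 in Lemma. The 35 genes of the ovary and carpel list summed to 473 to 477 in F5, 532 to 558 in F1, 271 to 282 in Anther, 591 to 648 in Ovary and 506 to 517 in Lemma, so that Ovary lay little above Lemma. The Pollen-specific protein gene TraesCS7D02G097700 averaged 0 FPKM in F5, 0.0409 in F1, 13.9 in Anther, 0.0210 in Ovary and 0 in Lemma. Another described gene of the anther list, Pollen allergen homolog TraesCS1B02G225800, averaged 0 FPKM in Anther and 0.00694 in F5. Of the 373 genes of that list, 79 had 0 counts in Anther, beside 69 in F5, 59 in F1, 84 in Ovary and 78 in Lemma. The 457 photosynthesis genes summed to 33952 to 40015 in F5, 18684 to 40701 in F1, 1530 to 2051 in Anther, 1294 to 1423 in Ovary and 37484 to 43882 in Lemma. Their part in the members' changes was not tested.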

How the data were processed

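The deposited table gave, for 14 libraries and 100591 genes, the authors' raw count per gene and the authors' FPKM. RNA was extracted with Trizol and had an integrity number above 7.0, per the labels. Bowtie 0.12.2 and the mouse build mm8 stand in the submitters' processing notes; wheat genes have no place on a mouse build, and the aligner, the annotation and the build of these values are not known from the sources used here. None of the gene IDs (0) matched the wheat annotation at hand, and no sequences are shown. Groups are the sample titles.

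Counts were scaled by TMM, filtered with filterByExpr and fitted with robust quasi-likelihood models in edgeR 4.0.16 (R 4.3.3), two-sided, over all genes: the florets in 1 fit, the organs in another, and floret against organ in a fit of all 14 libraries. Alternatives used limma 3.58.1 on log2(FPKM + 1) and log2(FPKM + 0.1) and DESeq2 1.42.0, whose effects are given with the other alternatives below. Folds against a group at 0 counts set that group's total to 3 counts, use TMM-scaled totals and cover counting error only. The fits were tested on simulated data.

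The members and all lists were chosen with earlier results of these data known. Genes named were those with the word in their description; in each of the first 4 comparisons the 4 called higher and 4 lower with the largest change, at least 1 FPKM and no overlap; the 2 most abundant per class; and the most abundant per group. Others are said to have been chosen after their values were seen. The 4 classes were assigned from the name, description and ontology text together.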

Additional observations from a re-analysis of the deposited data

How the results depend on the processing

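Low levels limit these results: 37 members stay under 1 FPKM in every group, and calls on them rest on few reads. Of 2822 values of the 33 genes named by rule under the alternatives, 2641 kept their side of the threshold, 117 lost the call, 64 gained it and 0 reversed. DESeq2, median-of-ratios scaling and no low-count filter kept the number of members called within 1.5 times in every comparison, except that median-of-ratios scaling gave 2 lower in Ovary against Lemma. In other results the counts moved by more, and the cause was not tested unless stated.

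With limma on log2(FPKM + 1), which shrinks changes of low genes by construction, 20 were lower in F5 against F1; 19 higher and 0 lower in Anther against Lemma; 0 lower in Ovary against Lemma; 2 higher in Anther against Ovary; 3 higher and 1 lower in F5 against Lemma; 0 higher and 2 lower in F1 against Ovary. With log2(FPKM + 0.1) there were 0 lower in Ovary against Lemma, 3 lower in F5 against Lemma and 13 lower in F1 against Ovary. Among genes with at least 1 FPKM, where fewer genes were tested, 38 were lower in F5 against F1, 32 higher in Anther against Lemma, 11 higher and 3 lower in F5 against Lemma, and 0 higher in F1 against Ovary. With no minimum fold there were 3 higher in F5 against F1, 13 lower in Anther against Lemma, 2 lower in Ovary against Lemma, 13 higher in Anther against Ovary, and 2 higher and 27 lower in F1 against Ovary. One fit of all 14 libraries gave 2 lower in Ovary against Lemma. With only the 2 groups in the fit, 15 were higher in F5 against Lemma and 13 lower in F1 against Ovary.

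Leaving out 1 library at a time gave 0 to 1 higher and 53 to 64 lower in F5 against F1, 68 to 73 higher and 4 to 8 lower in Anther against Lemma, 77 to 82 higher and 0 to 1 lower in Ovary against Lemma, 4 to 6 higher and 43 to 49 lower in Anther against Ovary, 17 to 25 higher and 4 to 9 lower in F5 against Lemma, and 0 to 3 higher and 4 to 6 lower in F1 against Ovary. Where Lemma had 1 library left, it was assumed to vary like the other groups.

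Pairing by replicate number was not assumed. Same-numbered libraries deviated together with correlations of -0.0123, 0.121 and -0.217 for F5 and F1, -0.3, -0.0191 and -0.315 for Anther and Ovary, -0.365, 0.317 and 0.0473 for F1 and Ovary, 0.0781 and 0.118 for Anther and Lemma, -0.247 and -0.193 for Ovary and Lemma, and 0.133 and 0.129 for F5 and Lemma. The last comparison has both correlations over 0.1, but it holds only 2 pairs, where 3 or more were required. With the number as a block, 0 were higher and 57 lower in F5 against F1, 64 higher and 4 lower in Anther against Lemma, 77 higher and 1 lower in Ovary against Lemma, 3 higher and 42 lower in Anther against Ovary, 24 higher and 7 lower in F5 against Lemma, and 0 higher and 6 lower in F1 against Ovary.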
